A study of Mus musculus with 17 samples.

Results

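mmu-miR-223-3p and both arms of the miR-142 hairpin, mmu-miR-142-3p and mmu-miR-142-5p, are mouse microRNAs (miRNAs) of blood cells, and their levels were followed in mouse serum. These 3 mouse assays were taken by name from the 365 assays of a serum real-time PCR panel, and all 3 gave a value in every mouse. The panel was run on 17 sera. The first group held 7 tumor AT-ATX mice, transgenic for Autotaxin, in which tumors had arisen spontaneously. The second held 7 tumor-free AT-ATX mice with the same transgene. The third held 3 healthy wild-type mice of the FVB/N strain, and the labels give that strain for the wild-type mice only. The promoter of the transgene, the kind of tumor and the ages of the mice are not given in the sources used here. Autotaxin produces the lipid mediator lysophosphatidic acid outside cells. A question mark stands in the label of tumor replicate 5, and this serum was kept in its labelled group. The labels name each serum as coming from 1 mouse.

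miR-223 is a miRNA of the myeloid lineage that is abundant in neutrophils and platelets and is known for restraining granulocyte production and inflammatory signaling. miR-142 is made throughout the hematopoietic lineage, where it is needed for the development and function of lymphoid and myeloid cells and of platelets. One precursor hairpin yields both of its arms, and each arm has its own seed and its own targets. In serum such miRNAs come from blood cells, platelets, vesicles and protein complexes, and cells that break during collection add to them.

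The mature sequences are shown because the comparisons below turn on 2 arms of one hairpin and on 2 assays named for one miRNA. They come from RefSeq (mouse build GRCm38.p6) and are written 5′ to 3′ with the seed, bases 2 to 8, in capitals. The panel's miR-142 names were matched to RefSeq's mmu-miR-142a.
miR-223-3p: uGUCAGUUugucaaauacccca
miR-142-3p: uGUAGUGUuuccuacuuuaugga
miR-142-5p: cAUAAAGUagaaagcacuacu

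The 3 seeds differ, and the longest stretch that any pair of them shared was 3 bases. The Mir142 hairpin lies on the plus strand at chr11:87756864-87756927, outside any protein-coding gene of the annotation, 1267 bases before Tspoap1 and 13241 bases after Supt4a. It is printed whole, with the 5p arm first and the 3p arm second in capitals, to show that both assays read parts of one transcript.
Mir142: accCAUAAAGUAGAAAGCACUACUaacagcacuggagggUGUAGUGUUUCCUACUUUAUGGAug

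A second miRNA gene, Mir142b, overlaps the hairpin on the minus strand, and its mature product at chr11:87756906-87756925 lies opposite the 3p arm. The Mir223 hairpin lies on the plus strand at chrX:96242817-96242926, inside the long noncoding RNA gene F630028O10Rik and 4275 bases before Vsig4. GC content was 40.9% for miR-223-3p, 34.8% for miR-142-3p and 33.3% for miR-142-5p. The median over the 262 of 317 mouse assays that matched a RefSeq sequence was 47.6%.

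The deposited values are threshold cycles (Ct), so the less template, the higher the value, and 1 cycle amounts to 2-fold at full PCR efficiency. For each mouse, a level was formed by subtracting the Ct of an assay from the average Ct of 252 miRNA assays that every mouse had values for, which puts it on a log2 scale. In serum, fewer cells of a type and less miRNA per cell cannot be told apart. Between 312 and 356 of 357 miRNA assays were detected per mouse. The mean Ct of the 252 shared assays ranged from 27.95 to 31.67 in tumor mice, from 28.14 to 30.50 in tumor-free mice and from 27.00 to 29.98 in wild-type mice. miR-451a, the marker of red blood cells, had the lowest mean Ct of the 252 assays, so that red-cell miRNA was present in every serum. In 13 sera the last decimals of the values took 2 endings, which split the assays into sets of 245 and 120, while a single ending ran through tumor replicate 1 and tumor-free replicates 4, 5 and 7. All 3 members lay in the larger set. An alternative scaling used below, by the mean of the own plate, took these sets as plates. That is an inference from the decimals, and the labels do not assign assays to plates. The differences and relations of the 3 members that passed a test are also given without these 4 sera.

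All 3 miRNAs were among the better detected assays. By mean Ct over the 17 mice, miR-223-3p ranked 12th of the 252 assays, miR-142-3p 25th and miR-142-5p 52nd, counted from the lowest Ct. The rank of miR-142-3p moved from 4th in wild-type replicate 2 to 123rd in tumor replicate 5. The rank of miR-223-3p stayed between 3rd and 38th and that of miR-142-5p between 23rd and 93rd. Efficiencies of the single assays are not known, so ranks between assays are descriptive.

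mmu-miR-223-3p was higher in tumor mice than in wild-type mice. Its level was 5.02, 5.86 and 7.96 at the lowest, median and highest of the 7 tumor mice, 4.73, 5.91 and 6.15 in the 7 tumor-free mice, and 5.13, 3.84 and 4.06 in wild-type replicates 1, 2 and 3. Of the 7 tumor mice, 6 exceeded the highest wild-type mouse, and tumor replicate 4 lay just below it. Among tumor-free mice, 5 of 7 exceeded it. How many other assays lay above wild type to this extent was not counted. With an exact permutation test per assay, many assays had an unadjusted p under 0.05. They were 45 of 338 for tumor minus wild type and 85 of 338 for tumor-free minus wild type. miR-223-3p was among both (exact permutation p = 0.025 each). The means were 6.30 ± 0.99 in tumor mice (SD, n = 7), 5.62 ± 0.52 in tumor-free mice (SD, n = 7) and 4.34 ± 0.69 in wild-type mice (SD, n = 3).

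Tumor minus wild type was 1.96 for miR-223-3p on the log2 scale (SE 0.56, 95% interval 0.80 to 3.12, 3.89-fold), with a limma adjusted p of 0.0333 over 338 tested assays. Tumor-free minus wild type was 1.28 (SE 0.56, limma adjusted p = 0.187) and tumor minus tumor-free was 0.68 (SE 0.43, 95% interval -0.22 to 1.58, limma adjusted p = 0.429). The group means were thus ordered tumor, tumor-free, wild type, and neither step between neighbours passed the test. The medians of tumor and tumor-free mice, 5.86 and 5.91, were not in that order. The tumor minus wild type call was lost without any 1 of wild-type replicates 2 and 3 and tumor replicates 1, 2 and 6, with limma adjusted p between 0.0517 and 0.154. Without the 4 sera of 1 decimal ending it was 1.68 (limma adjusted p = 0.117).

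The panel also held an assay named for rat miR-223-3p, and it gave a smaller difference. Its level averaged 5.06 ± 1.04 in tumor mice, 4.48 ± 0.55 in tumor-free mice (SD, n = 7 each) and 4.04 ± 0.54 in wild-type mice (SD, n = 3). By this assay tumor minus wild type was 1.02 (SE 0.56, 95% interval -0.15 to 2.19, limma adjusted p = 0.259), so the call of the mouse assay was not made. Tumor minus tumor-free was 0.58 by the rat assay, against 0.68 by the mouse assay.

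Within a mouse, the Ct of the rat assay minus that of the mouse assay was 1.10, 1.27 and 1.30 cycles at the lowest, median and highest of the tumor mice and 1.03, 1.10 and 1.31 in the tumor-free mice. It was 0.66, 0.41 and -0.17 in wild-type replicates 1, 2 and 3. Every one of the 14 transgenic mice exceeded the 3 wild-type mice. The group difference was 0.94 cycles for tumor minus wild type and 0.84 for tumor-free minus wild type, each with an exact permutation p of 0.0167 (adjusted 0.025 over 3 tests, two-sided). With this test, which doubles the smaller tail, no smaller p is possible for 3 against 7 mice. Without the 4 sera of 1 decimal ending the differences were 0.94 and 0.86 cycles, and neither passed (exact permutation adjusted p = 0.0714 and 0.0857). Among the 15 miRNAs with a mouse and a rat assay of one name in all sera, miR-223-3p was the only one whose wild-type and transgenic mice did not overlap, and its shift of 0.89 cycles was the largest, against a median size of 0.18. The panel held 20 such pairs, and those without a value in every serum were not checked for overlap. Among these incomplete pairs, only miR-802-5p and miR-208a-3p shifted further than miR-223-3p. Their shifts were 1.47 cycles (16 sera) and 2.27 cycles (14 sera). Why the assays of one name differed by group was not tested. The comparison of the assays was chosen after their values were seen.

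**Figure D1:**
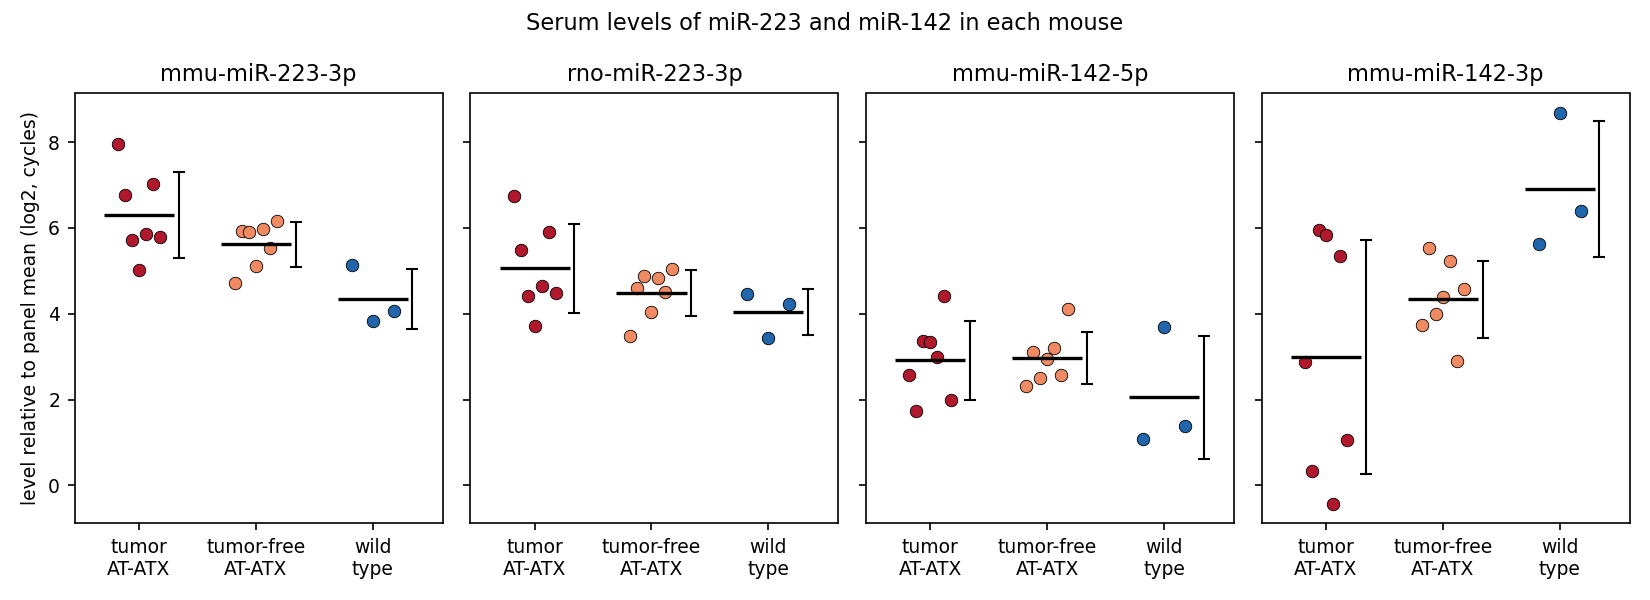
Level relative to the panel mean (log2, y axis) of mouse miR-223-3p, the rat assay of miR-223-3p, miR-142-5p and miR-142-3p in tumor AT-ATX, tumor-free AT-ATX and wild-type mice. Each point is 1 mouse, long bars are group means and error bars are SD. The tumor mice spread from -0.42 to 5.95 for miR-142-3p, while miR-142-5p overlapped between all groups.

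mmu-miR-142-3p went the other way and was the most variable of the 3. Its level was -0.42, 2.87 and 5.95 at the lowest, median and highest of the tumor mice, 2.91, 4.38 and 5.54 in the tumor-free mice, and 5.64, 8.68 and 6.39 in wild-type replicates 1, 2 and 3. All 7 tumor-free mice and 5 of 7 tumor mice lay below all wild-type mice. How many other assays lacked overlap in this way was not counted. With an exact permutation test per assay, 85 of 338 assays had an unadjusted p under 0.05 for tumor-free minus wild type. miR-142-3p was among them (exact permutation p = 0.00833, adjusted 0.0828). For tumor minus wild type 45 of 338 assays had such a p, and miR-142-3p was not among them (exact permutation p = 0.0583). Tumor replicates 3 and 4 lay above the lowest wild-type mouse, and tumor replicates 1, 2, 5 and 7 lay below every tumor-free mouse, replicate 1 only just. The raw Ct showed the same spread, from 23.82 to 29.79 cycles in tumor mice, from 24.40 to 26.65 in tumor-free mice and from 19.46 to 23.58 in wild-type mice. The mean level was 3.00 ± 2.73 in tumor mice (SD, n = 7), 4.34 ± 0.90 in tumor-free mice (SD, n = 7) and 6.90 ± 1.58 in wild-type mice (SD, n = 3).

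Tumor minus wild type was -3.91 for miR-142-3p on the log2 scale (SE 1.19, 95% interval -6.40 to -1.41), a 15.0-fold lower level, with a limma adjusted p of 0.0467. Tumor-free minus wild type was -2.56 (SE 1.19, limma adjusted p = 0.202) and tumor minus tumor-free was -1.34 (SE 0.92, 95% interval -3.27 to 0.59, limma adjusted p = 0.477). The order of the group means was thus the reverse of that of miR-223-3p, again with no call between neighbours. Both contrasts with wild type used 1 pooled spread, though the SD was 2.73 in tumor and 0.90 in tumor-free mice. With only the 2 groups compared, tumor-free minus wild type had an SE of 0.68 (limma adjusted p = 0.0553). Tumor minus wild type then had an SE of 1.37 (limma adjusted p = 0.162). The tumor minus wild type call lay close to the threshold: of the 17 fits that left out 1 mouse, it held in the 4 without wild-type replicate 1 or tumor replicates 3, 4 or 6, and in the other 13 the limma adjusted p was between 0.0532 and 0.240. The value moved furthest, to -3.02, without wild-type replicate 2. Without the 4 sera of 1 decimal ending it was -3.89 (limma adjusted p = 0.139).

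The within-group SD of the miR-142-3p level, 1.98, was the 4th largest of the 252 assays, behind the muscle miRNAs miR-1a-3p, miR-133a-3p and miR-133b-3p. miR-142-5p, with 0.90, and miR-223-3p, with 0.78, lay near the median of 0.85.

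mmu-miR-142-5p, the other arm of the same hairpin, passed the test in no comparison. Its level was 1.73, 2.98 and 4.40 at the lowest, median and highest of the tumor mice, 2.33, 2.95 and 4.11 in the tumor-free mice, and 1.07, 3.69 and 1.40 in wild-type replicates 1, 2 and 3. The groups overlapped throughout. The means were 2.91 ± 0.91 in tumor mice, 2.97 ± 0.60 in tumor-free mice (SD, n = 7 each) and 2.05 ± 1.43 in wild-type mice (SD, n = 3). Tumor minus wild type was 0.86 (SE 0.61, 95% interval -0.42 to 2.14, limma adjusted p = 0.405), tumor-free minus wild type 0.92 (limma adjusted p = 0.391) and tumor minus tumor-free -0.06 (95% interval -1.05 to 0.93, limma adjusted p = 0.931).

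Over all 338 tested assays, the same limma fit called 1.48% for tumor minus tumor-free, 0.592% for tumor-free minus wild type and 8.28% for tumor minus wild type, where 14 assays were higher and 14 lower. Of the 3 miRNAs, none was called in the first comparison, none in the second, and in the third miR-223-3p was called higher and miR-142-3p lower. The median log2 difference over all tested assays was 0.14, 0.03 and 0.19 in the 3 comparisons. All contrasts with wild type rest on the same 3 wild-type mice.

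The scaling bore on the comparisons with wild type, because Ct over the shared assays averaged 29.75 in tumor mice, 29.39 in tumor-free mice and 28.37 in wild-type mice. No test of that measure passed (exact permutation, adjusted p = 0.55 for tumor minus wild type over 12 tests of sample measures). With raw Ct values the median of all tested assays for tumor minus wild type shifted to -1.22, against 0.19 with the panel mean, and with the spike-in controls it shifted to -0.94. On these scales miR-142-3p differed by -5.29 with raw Ct (limma adjusted p = 0.0144) and by -5.02 with the spike-ins (limma adjusted p = 0.023). For miR-223-3p the values were 0.58 (limma adjusted p = 0.70) and 0.84 (limma adjusted p = 0.637), so that call depended on the panel scaling. miR-142-5p changed sign, to -0.52 and -0.26. Relative to the median of all tested assays, miR-223-3p lay above and miR-142-3p below under all 7 scalings plotted.

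**Figure D2:**
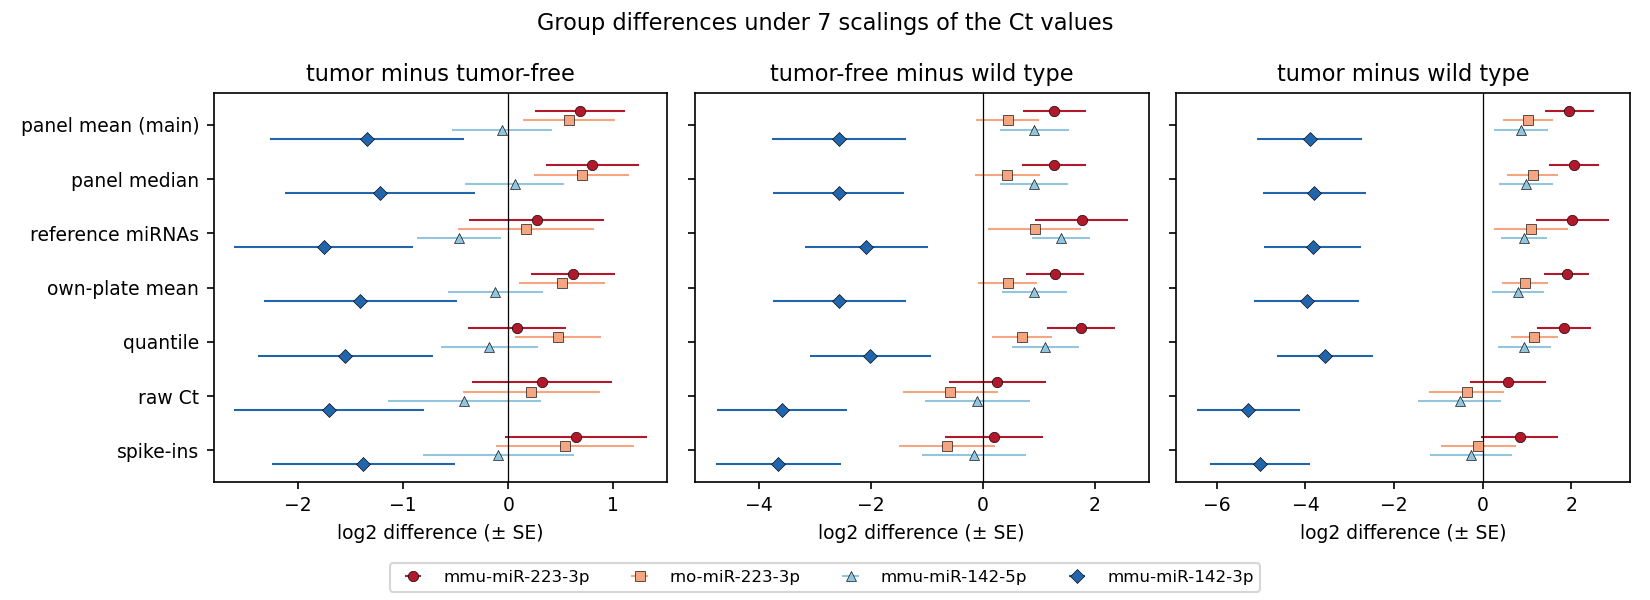
Log2 difference between groups (x axis, bars are SE from limma) for the 3 miRNAs and the rat miR-223-3p assay under 7 ways of scaling the Ct values (y axis). miR-142-3p is negative in every panel and scaling, and for tumor minus wild type it lies at -5.29 with raw Ct, where miR-223-3p lies at 0.58.

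The difference between the arms needs no scaling, since both were read in one serum. The Ct of miR-142-3p minus that of miR-142-5p was -2.58, -0.30 and 3.41 cycles at the lowest, median and highest of the tumor mice and -2.44, -1.44 and -0.32 in the tumor-free mice. It was -4.57, -4.99 and -5.00 in wild-type replicates 1, 2 and 3. Every one of the 14 transgenic mice exceeded the 3 wild-type mice. Such a lack of overlap with wild type was found in 4 of 61 hairpins for tumor mice and in 9 of 61 for tumor-free mice. The 3p assay came up later than the 5p assay in 3 mice, tumor replicates 2, 5 and 7, and earlier in the other 14. The means were -0.083 ± 2.17 cycles in tumor mice, -1.37 ± 0.76 in tumor-free mice (SD, n = 7 each) and -4.85 ± 0.25 in wild-type mice (SD, n = 3).

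Relative to the 5p arm, the 3p arm came up later than in wild-type mice by 4.77 cycles in tumor mice and by 3.48 cycles in tumor-free mice. Each of these had an exact permutation p of 0.0167 (two-sided, the smallest possible for 3 against 7 mice with the smaller tail doubled), which became 0.05 after adjustment over the 9 tests of member pairs and so did not fall under the threshold. Tumor minus tumor-free was 1.29 cycles (exact permutation p = 0.16, adjusted 0.24). With the p taken as the share of absolute differences, a choice made after the data were seen, tumor-free minus wild type had an adjusted exact permutation p of 0.0375, and the tumor minus wild type call was still not made.

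**Figure D3:**
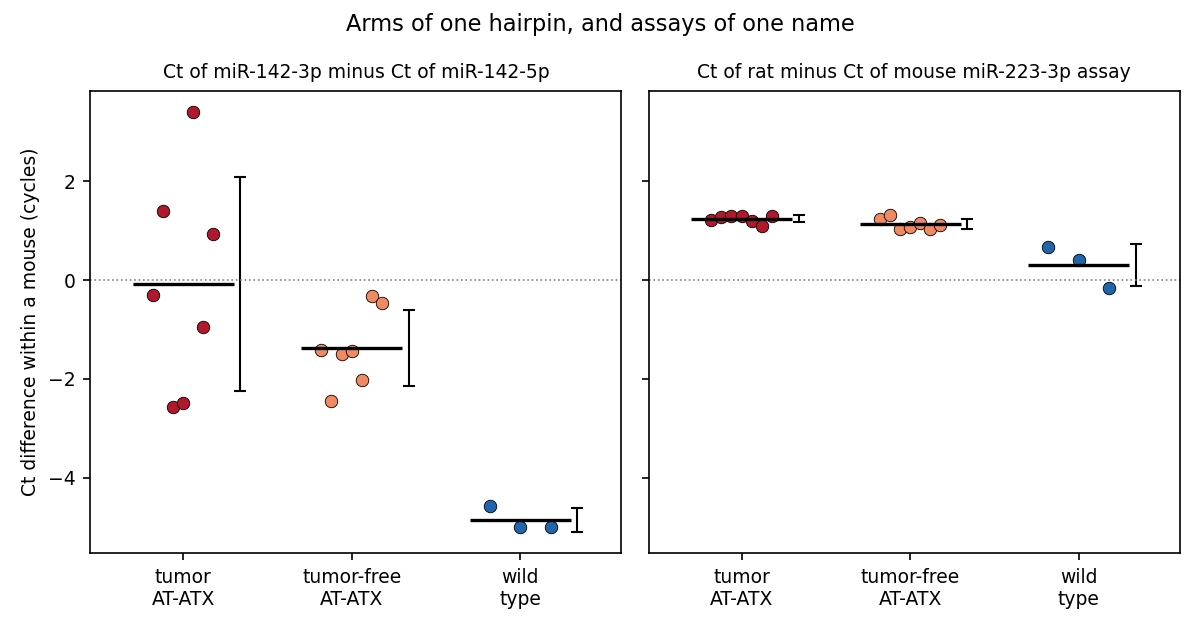
Ct difference within a mouse (cycles, y axis) between the 3p and 5p arms of miR-142 (left) and between the rat and mouse assays of miR-223-3p (right) in tumor AT-ATX, tumor-free AT-ATX and wild-type mice. Points are mice, long bars are means and error bars are SD. In both panels all wild-type mice lie below all transgenic mice.

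To set this arm difference beside others, the same quantity was formed for the 61 mouse hairpins with both arms tested, and limma was run over them. This fit was added after the arm values were seen. For tumor minus wild type, 3.28% of the hairpins passed, and miR-142 ranked first by p and by size (4.77 cycles, SE 0.89, 95% interval 2.94 to 6.60, limma adjusted p = 0.000954). The other hairpin that passed, miR-33, shifted by 2.29 cycles. For tumor-free minus wild type, 13.1% passed, and miR-142 had the largest shift and the second smallest p (3.48 cycles, SE 0.89, 95% interval 1.65 to 5.31, limma adjusted p = 0.0146). For tumor minus tumor-free, 0% passed at an adjusted p under 0.05 and 10 of 61 at an unadjusted limma p under 0.05, and miR-142 shifted by 1.29 cycles (95% interval -0.13 to 2.70, limma adjusted p = 0.312).

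The median shift over the 61 hairpins was -0.0015 cycles for tumor minus wild type and -0.17 for tumor-free minus wild type, so there was no common shift of arms across the panel. The 7 other hairpins called for tumor-free minus wild type were miR-33, miR-34b, miR-101a and miR-503 with positive shifts and miR-17, miR-139 and miR-1839 with negative ones. The tumor minus wild type call of miR-142 held without each of the 17 mice in turn (limma adjusted p at most 0.0115) and without the 4 sera of 1 decimal ending (4.80 cycles, limma adjusted p = 0.00479). The tumor-free minus wild type call was lost without wild-type replicate 3 (3.41 cycles, limma adjusted p = 0.0794) and without the 4 sera (3.43 cycles, limma adjusted p = 0.0652).

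Over single mice, the arm difference of miR-142 spanned 8.41 cycles, the widest of the 38 hairpins with both arms detected in all sera, against a median of 3.18 cycles. Its within-group SD of 1.51 cycles ranked second of 38, against a median of 0.84. In 22 of the 38 hairpins the same arm came first in every mouse.

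**Figure D4:**
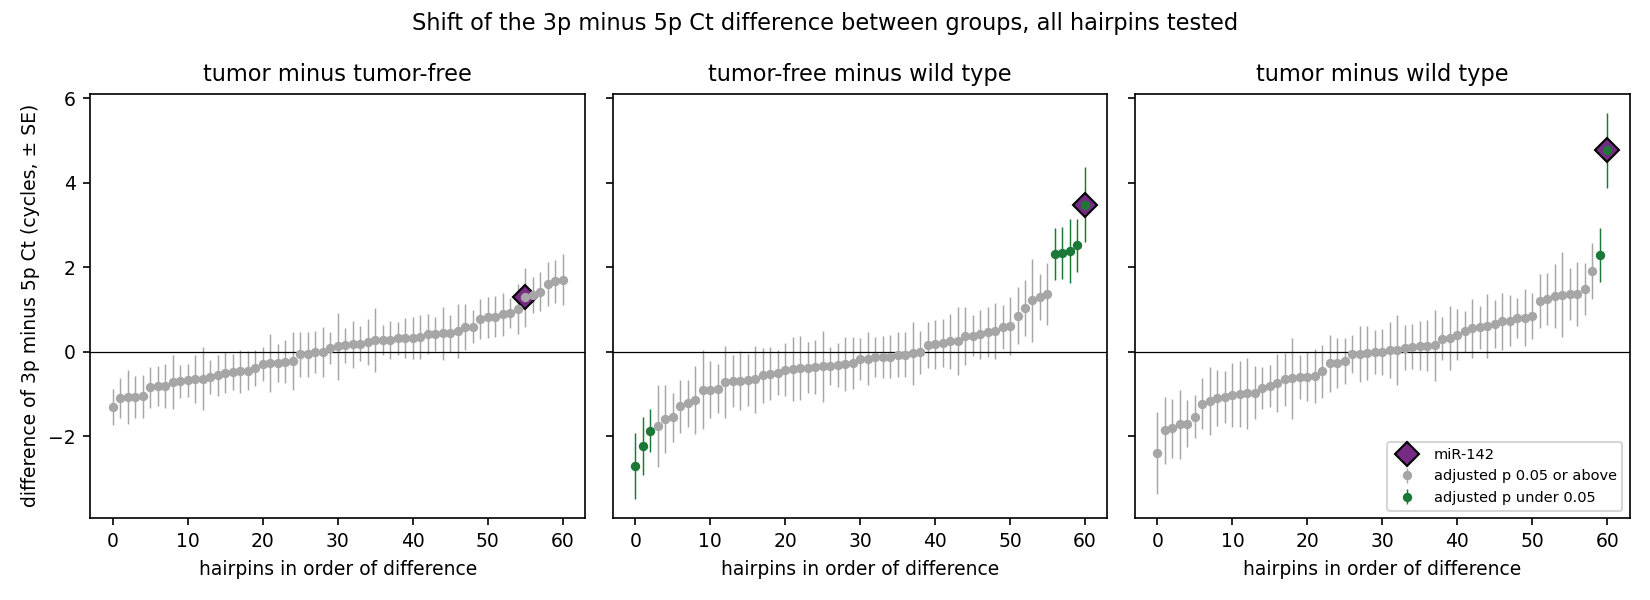
Group difference of the 3p minus 5p Ct (cycles, y axis, bars are SE from limma) of 61 hairpins in increasing order (x axis), in each of the 3 comparisons. The purple diamond is miR-142 and green marks an adjusted p under 0.05. miR-142 is the last point in both comparisons with wild type, at 4.77 and 3.48 cycles.

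The pairs with miR-223-3p were compared in the same way. The Ct of miR-223-3p minus that of miR-142-3p was -6.43, -4.73 and 0.82 cycles at the lowest, median and highest of the tumor mice, -2.63, -0.99 and -0.38 in the tumor-free mice, and 0.51, 4.84 and 2.33 in wild-type replicates 1, 2 and 3. Tumor-free mice lay wholly below wild-type mice, and tumor replicates 3 and 4 lay inside or next to the wild-type range. How often other pairs of assays lack overlap in this way was not counted. The difference was -5.86 cycles for tumor minus wild type (exact permutation p = 0.0333, adjusted 0.075) and -3.84 for tumor-free minus wild type (exact permutation p = 0.0167, adjusted 0.05). Without the 4 sera of 1 decimal ending these were -5.57 and -4.04 cycles (exact permutation adjusted p = 0.129 each). The Ct of miR-223-3p minus that of miR-142-5p overlapped between all groups, with medians of -2.87 in tumor mice, -2.77 in tumor-free mice and -2.67 in wild-type mice. Its tumor minus wild type difference was -1.10 cycles (exact permutation p = 0.367, adjusted 0.412).

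The levels of the 3 miRNAs were also compared from mouse to mouse. With levels centred on their group means, those of miR-142-3p and miR-142-5p had a Pearson r of 0.69 over 17 mice (permutation p = 0.00575, adjusted 0.0862 over the 15 relations computed) and a Spearman rho of 0.80 (permutation p = 0.00055, adjusted 0.00825). Without the 2 mice farthest from the median of miR-142-3p, r was 0.77. Within the 7 tumor mice r was 0.72 and within the 7 tumor-free mice 0.54. With miR-223-3p, r was -0.14 for miR-142-3p (permutation p = 0.695) and -0.06 for miR-142-5p (permutation p = 0.835). These differed by group, at -0.16 and -0.08 within the 7 tumor mice and 0.48 and 0.65 within the 7 tumor-free mice, and the difference was not tested. Without the 4 sera of 1 decimal ending, r between the arms was 0.72 (permutation adjusted p = 0.173) and rho 0.73 (permutation adjusted p = 0.165), so the rank relation no longer passed. With raw Ct in place of levels, r between the arms was 0.61 (permutation p = 0.0427, adjusted 0.107).

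The assays with the most alike pattern were sought among 225 mouse assays detected in all sera, by Pearson r of the level over 17 mice centred on group means. These r values describe points that share one serum and one panel mean. For miR-223-3p they were miR-23b-3p (0.83), miR-23a-3p (0.81) and miR-24-3p (0.78), which are encoded in paralogous miR-23/27/24 clusters. For miR-142-3p they were miR-374b-5p (0.95), miR-26b-5p (0.91) and let-7g-5p (0.90), and its sister arm came only 19th. For miR-142-5p they were miR-32-5p (0.94), miR-340-5p (0.82) and miR-15b-5p (0.79), with miR-142-3p 12th. The first of each trio was also first with raw Ct, at 0.93, 0.90 and 0.97. When the 4 sera of 1 decimal ending were left out, r with the first of each trio was 0.85, 0.97 and 0.93, and miR-23b-3p then came second for miR-223-3p.

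The sequences of the leading neighbours are shown to set their seeds beside those printed above. RefSeq's entries are on GRCm38.p6, and seeds are in capitals.
miR-23a-3p: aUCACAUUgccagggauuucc
miR-374b-5p: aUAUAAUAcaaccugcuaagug
miR-32-5p: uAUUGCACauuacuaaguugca
miR-340-5p: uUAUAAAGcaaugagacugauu

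The seed of miR-340-5p shares 6 bases in a row with that of miR-142-5p, displaced by 1 position. The seeds of miR-374b-5p and miR-32-5p share at most 2 bases in a row with that of the arm each resembled. The levels of miR-23a-3p and miR-23b-3p did not pass the test for tumor minus wild type, with differences of 1.20 (limma adjusted p = 0.141) and 0.43 (limma adjusted p = 0.653).

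**Figure D5:**
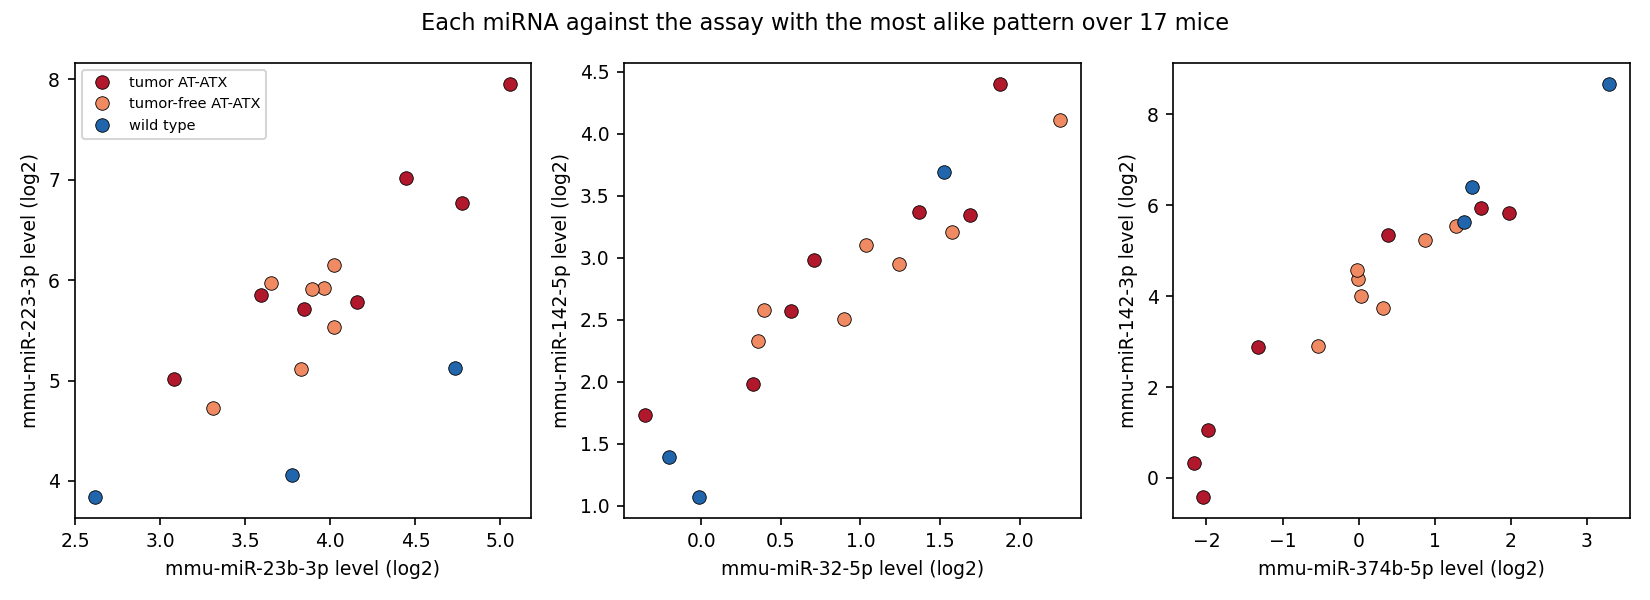
Level (log2) of each miRNA (y axis) against the assay whose level was most alike over 17 mice (x axis): miR-223-3p with miR-23b-3p, miR-142-5p with miR-32-5p and miR-142-3p with miR-374b-5p. Points are mice, colored by group. The points show levels that are not centred. The highest r of the 3 pairs, computed after centring on group means, was that of miR-142-3p with miR-374b-5p (0.95).

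Markers of other blood cells and of liver were read beside these results. Of 9 other white blood cell miRNAs, 1 was called higher in tumor than in wild-type mice, miR-146a-5p (a feedback inhibitor of inflammatory signaling), by 2.22 (limma adjusted p = 0.0419). None was called lower. Over all assays 8.28% were called in that comparison, so 1 of 9 lay near that share. By sign 7 of the 9 were above 0 and 2 below, the lowest being miR-181a-5p at -0.68 (limma adjusted p = 0.482). For tumor-free minus wild type all 9 were above 0, and for tumor minus tumor-free 4 were above and 5 below. The median of the 9 was 1.08 for tumor minus wild type, against 0.19 over all assays. The mean level of that list ranged from 0.03 to 2.09 in tumor mice, from 0.53 to 2.36 in tumor-free mice and from -0.04 to 0.40 in wild-type mice. No other comparison of the list gave a call.

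No platelet miRNA of 6 and no red blood cell miRNA of 8 was called in any comparison. Over all assays at most 8.28% were called in a comparison, so 0 calls in lists this short say little. Of the 8 red blood cell miRNAs, 7 were below 0 for tumor-free minus wild type (median -1.16) and 7 for tumor minus wild type (median -0.61). For tumor minus tumor-free 7 were above 0 (median 0.33). The 6 platelet miRNAs split into 3 above and 3 below 0 in both comparisons with wild type. The red blood cell list ranged from 3.49 to 5.997 in tumor mice, from 3.95 to 5.16 in tumor-free mice and from 4.53 to 6.33 in wild-type mice. The platelet list ranged from 2.33 to 2.94 in tumor mice, from 2.37 to 2.83 in tumor-free mice and from 2.09 to 2.67 in wild-type mice. Of 5 liver miRNAs, all 5 were below 0 for tumor minus wild type (median -1.75). Among them 3 were called lower, namely miR-802-5p, miR-194-5p and miR-192-5p. miR-802-5p was also lower in tumor than in tumor-free mice, by -1.99 (limma adjusted p = 0.0105), and the other 4 were not called there, with differences all below 0. The liver list ranged from 1.82 to 3.86 in tumor mice, from 3.43 to 4.83 in tumor-free mice and from 3.92 to 5.06 in wild-type mice.

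The hemolysis index subtracts the Ct of miR-451a from that of miR-23a-3p and rises with red-cell rupture. It was 3.97 ± 1.97 cycles in tumor mice, 4.38 ± 0.84 in tumor-free mice (SD, n = 7 each) and 5.61 ± 2.07 in wild-type mice (SD, n = 3), and no group difference passed (exact permutation adjusted p at least 0.55). With values centred on group means, its r was -0.63 with miR-223-3p (permutation p = 0.0271), 0.61 with miR-142-3p (permutation p = 0.0492) and 0.54 with miR-142-5p (permutation p = 0.0762). Spearman's rho was -0.65, 0.56 and 0.59 (permutation p = 0.0189, 0.0556 and 0.0485). None of these passed adjustment over the 15 relations (lowest adjusted p 0.0944), and without the 2 mice farthest from the median index r was -0.45, 0.41 and 0.36. miR-23a-3p is also among the assays most alike to miR-223-3p, so the index and miR-223-3p are not independent measures.

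With the index as a covariate, tumor minus wild type was 1.46 for miR-223-3p (limma adjusted p = 0.0661) and -2.68 for miR-142-3p (limma adjusted p = 0.125), so neither call held. The part of red-cell rupture in the group differences was not tested beyond this.

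With raw Ct, r of miR-223-3p with the other white blood cell list was 0.86 (permutation p = 0.00018, adjusted 0.0027) and rho 0.87 (permutation p = 0.00014), and r of miR-142-5p with it was 0.74 (permutation p = 0.00349, adjusted 0.0131). That of miR-142-3p was 0.16 (permutation p = 0.599, adjusted 0.642). The platelet list gave raw Ct r values of 0.81 with miR-223-3p (permutation p = 0.00176, adjusted 0.0088) and 0.70 with miR-142-5p (permutation p = 0.0122, adjusted 0.0366), and the red blood cell list 0.82 with miR-142-5p (permutation p = 0.00144, adjusted 0.0088). High raw Ct r values were thus not limited to the white blood cell list. The lists also hold assays most alike to the members, so they are not independent of that search. For miR-223-3p these are miR-24-3p in the platelet list and miR-27a-3p (raw Ct r 0.92) in the white blood cell list. For miR-142-5p it is miR-15b-5p in the red blood cell list. With the 4 sera of 1 decimal ending left out, miR-223-3p still passed with the white blood cell list (r = 0.91, permutation adjusted p = 0.003) and with the platelet list (r = 0.89, permutation adjusted p = 0.0125). miR-142-5p no longer passed with the white blood cell list (r = 0.65, permutation adjusted p = 0.167), the platelet list (r = 0.60, permutation adjusted p = 0.242) or the red blood cell list (r = 0.80, permutation adjusted p = 0.0521). Raw Ct values share the total amount in a serum, and on the level scale the r values with the other white blood cell list were 0.51, 0.22 and -0.15, none of which passed adjustment.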

How the data were processed

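Per the labels' protocols, blood was spun at necropsy, RNA came from 50 µL of serum, and Exiqon serum panels I and II were amplified over 40 cycles with SYBR Green. The deposited values are Ct values, a score per assay that the authors did not normalize, per the name of the table; thresholds and calibration are not given in the sources used here. Empty cells were taken as not detected, and no value exceeded 37.00.

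Tests required a value in 5 or more tumor, 5 or more tumor-free and 2 or more wild-type mice, which left 338 of 357 miRNA assays. Levels went into 1 limma fit of all 17 mice with lmFit and eBayes (R 4.3.3, limma 3.58.1). Two-sided p-values were adjusted by Benjamini-Hochberg per comparison and called under 0.05. The code was tested on simulated levels. Differences between assays of one mouse had exact permutation tests (two-sided, scipy 1.17.1, which doubles the smaller tail) with adjustment over 9 tests, sample measures likewise over 12, and relations by 100000 reorderings within groups. The smallest p it can give was 0.0167 for 3 against 7 mice and 0.000583 for 7 against 7. The exact permutation test per assay counts absolute differences and can reach 0.00833 for 3 against 7. No 2 sera held the same values (smallest SD of their difference 0.665 cycles). Replicates were numbered in the order of the deposit. That they are separate mice comes from the labels.

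The members and the miRNA lists were chosen with earlier results of these data known. Named beside the members were the 3 assays most alike to each, the assays of the hemolysis index, the rat assay and, of each list, those that passed or lay at its ends. The hairpins and neighbours with sequences were named after their values were seen. Python 3.11.15, numpy 2.4.6, pandas 2.3.3 and matplotlib 3.10.9 were used.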

Additional observations from a re-analysis of the deposited data

How the results depend on the processing

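The limits of these data lie mainly in 3 wild-type mice, in assays of unknown efficiency and in a panel mean that stands for the amount of RNA. Precision is limited by the number of mice. No paired analysis was possible because the numbers that some tumor and tumor-free mice share in their labels have no stated meaning and form no 1-to-1 pairs, and the wild-type labels carry none. With that number as a random block (correlation 0.0703), both tumor minus wild type calls held.

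Of the alternatives other than leaving out 1 mouse, the tumor minus wild type call of miR-223-3p held in 7 of 16 and that of miR-142-3p in 9 of 15. For miR-223-3p the value where it was lost was 2.03 with the reference miRNAs, 0.58 with raw Ct, 0.84 with the spike-ins, 1.84 with quantile normalization, 1.96 with only the 2 groups compared or with the exact permutation test per assay, 1.46 with the hemolysis index as a covariate, 1.68 without the 4 sera of 1 decimal ending and 1.02 by the rat assay. For miR-142-3p it was -3.83 with the reference miRNAs, -3.91 with missing values set to a Ct of 37, with only the 2 groups compared or with the exact permutation test per assay, -2.68 with the index and -3.89 without the 4 sera. Leaving out 1 mouse at a time gave 1.68 to 2.35 for miR-223-3p, called in 12 of 17 fits, and -4.54 to -3.02 for miR-142-3p, called in 4 of 17. By the mouse assays neither miRNA changed direction under these settings in any comparison. The rat assay of miR-223-3p turned negative, to -0.36 with raw Ct and -0.098 with the spike-ins for tumor minus wild type and to -0.58 and -0.64 for tumor-free minus wild type. The causes of these changes were not tested.

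miR-142-5p was called nowhere and changed sign. Tumor minus tumor-free was 0.064 with the panel median, 0.067 with the index, 0.34 without the 4 sera and between -0.31 and 0.14 without 1 mouse. Tumor-free minus wild type was -0.10 with raw Ct and -0.16 with the spike-ins, and tumor minus wild type -0.52 and -0.26.

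The count of assays called moved by more than 1.5 times under several settings. For tumor minus tumor-free it was 0 with the reference miRNAs, raw Ct, the spike-ins, the exact permutation test per assay or without the 4 sera, 8 with only the 2 groups compared and 13 with the index, against 5, and 2 to 10 without 1 mouse. For tumor-free minus wild type it was 0 with raw Ct, the spike-ins or the exact permutation test, 1 with the panel median, the reference miRNAs, a trended robust variance or without the 4 sera, 4 with missing values at 37, 5 with the index, 7 with the mean of the own plate and 10 with only the 2 groups compared, against 2, and 1 to 9 without 1 mouse. For tumor minus wild type it was 9 with the reference miRNAs, 15 with raw Ct, 8 with the spike-ins, 1 with only the 2 groups compared, 0 with the exact permutation test and 14 without the 4 sera, against 28, and 10 to 38 without 1 mouse. The exact permutation test per assay cannot give a smaller p than 0.00833 with 3 wild-type mice, which the adjustment over 338 assays then raises. The members did not reach that floor for tumor minus wild type. Their exact permutation p was 0.025 for miR-223-3p (adjusted 0.249) and 0.0583 for miR-142-3p (adjusted 0.352). For tumor minus tumor-free, with 0 calls as well, the smallest possible p was 0.000583.

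Within a mouse, the arm difference of miR-142 kept its direction in all alternatives. For tumor-free minus wild type, 3.48 cycles passed with the exact p over absolute differences and with limma over all hairpins, and for tumor minus wild type 4.77 cycles passed with limma over all hairpins. The tumor-free minus wild type difference between miR-223-3p and miR-142-3p, -3.84 cycles, passed with the exact p over absolute differences. That between miR-223-3p and miR-142-5p lay between -1.24 and 0.71 cycles without 1 mouse and turned positive without wild-type replicate 2.

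Some weak correlations changed sign with raw Ct and with the spike-ins. The r of miR-223-3p was then 0.50 and 0.48 with miR-142-5p and 0.38 and 0.41 with the red blood cell list. That of miR-142-3p was 0.18 and 0.10 with the platelet list and 0.16 and 0.064 with the other white blood cell list, and that of miR-142-5p was 0.70 and 0.69 with the platelet list. Without 1 mouse, r of miR-223-3p lay between -0.26 and 0.072 with miR-142-3p and between -0.22 and 0.081 with miR-142-5p, and r with the other white blood cell list lay between -0.41 and 0.045 for miR-142-3p and between -0.048 and 0.34 for miR-142-5p.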
